A study of Homo sapiens with 4 samples.

Results

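The 7 core pluripotency transcription factors POU5F1, SOX2, NANOG, SALL4, PRDM14, ZFP42 and ZSCAN10 were taken by gene name from the deposited table of 16174 genes, and all 7 were found. Their transcript levels were compared in the established human embryonic stem cell line H9, kept in the primed state, in which the long non-coding RNA gene SNHG26 had been targeted by CRISPR interference. There were 4 nanopore cDNA libraries, 1 for each combination of guides and day. The SNHG26 arm carried 4 pooled guides against SNHG26 and was harvested after 2 or 3 days of doxycycline. The control arm carried non-targeting guides and was harvested on the same days. Cells of both arms held dCas9-KRAB under doxycycline control, in which a Cas9 that cannot cut carries the KRAB repressor to the guided site. It was integrated with the guides by a transposase, and the cells were selected with puromycin as a pool. Each arm thus has 2 libraries that differ in day, and every mean ± SD over an arm or a day below has n = 2. The labels do not say whether the libraries came from separate cultures, so p-values measure only the spread between these 4 libraries.

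These factors keep embryonic stem cells self-renewing and able to form every tissue of the body. OCT4 (the product of POU5F1) and SOX2 bind DNA side by side at a composite element, and with NANOG they occupy the regulatory regions of many of the same genes, their own included. SALL4, PRDM14, ZFP42 (also called REX1) and ZSCAN10 are zinc finger proteins that act in the same network, and loss of OCT4, SOX2 or NANOG leads the cells to differentiate.

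The composite element can be read in the promoter of NANOG, shown here because it is the textbook case of a core factor controlled by the other core factors. The 250 bases before the RefSeq start of NANOG (GRCh38.p14, chr12:7789152-7789401, plus strand) are printed with capitals on the match to the OCT4-SOX2 composite (CATTGT, any 1 base, then ATGCAAA), which lies on the opposite strand and ends 106 bases before the start. The same stretch of SOX2 (chr3:181711675-181711924, plus strand) has capitals on its match to ATGCAAA, the OCT4 part of the element, 93 bases before the start.
NANOG: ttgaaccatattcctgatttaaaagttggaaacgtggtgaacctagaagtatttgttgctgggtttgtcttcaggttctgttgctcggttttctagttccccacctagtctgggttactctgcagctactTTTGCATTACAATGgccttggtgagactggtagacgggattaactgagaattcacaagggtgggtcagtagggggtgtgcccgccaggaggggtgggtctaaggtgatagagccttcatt
SOX2: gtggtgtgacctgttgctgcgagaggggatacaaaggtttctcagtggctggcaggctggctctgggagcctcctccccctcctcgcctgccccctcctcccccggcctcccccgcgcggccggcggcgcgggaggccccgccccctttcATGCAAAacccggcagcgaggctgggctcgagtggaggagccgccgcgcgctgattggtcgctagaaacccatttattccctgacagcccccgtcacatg

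On both strands of 35116 RefSeq promoters (250 bases before to 50 after the start), the composite was found in 3, a share of 0.00854%. The 7-base ATGCAAA, which is part of the composite, was found in 4.46%, the octamer ATGCAAAT in 1.77% and the SOX part CATTGT in 10.8%. Promoters were matched for 4 of the 7 factors, SOX2, NANOG, ZFP42 and ZSCAN10. NANOG held the composite and SOX2 only ATGCAAA, while none of these letters occurred in the windows of ZFP42 and ZSCAN10. A match is a description of the sequence and not a measurement of binding.

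Values are TPM, in which reads per length are scaled so that libraries share 1 total. In this table the listed length is the genomic span, introns included. Some values are whole reads only on a shorter span, as PRDM14 is on 19602 and not on the listed 20043 bases. The length behind a value is thus not always the listed one. A gene with a short span stands higher than one with a long span at equal reads. With reads placed on the full listed spans, the libraries would hold from 947338 to 1220265 reads, and shorter spans would give fewer. The targeted gene, SNHG26, was listed at 0 and 0.933 TPM in the SNHG26-guide libraries of day 2 and day 3 against 2.98 and 4.03 TPM with the control guides. Both SNHG26-guide values lay below both control values, as they did for 13.2% of the 8274 genes tested. On the RefSeq span of 7197 bases these values are 0, 1.03, 2.67 and 4.32 reads in the same order. On the listed span they are 0, 8.56, 22.2 and 35.9 reads. The difference did not pass the limma test over 8274 genes (log2 change -1.69, SE 0.58, adjusted p = 0.935).

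All 7 factors were detected in every library, and their mean levels ran from 2.16 to 1126 TPM. POU5F1 was by far the highest, at 1126 TPM on average, followed by SOX2 at 264.3, ZFP42 at 63.2 and NANOG at 27.9 TPM. Next came ZSCAN10 at 19.4, SALL4 at 11.3 and PRDM14 at 2.16 TPM. This order was the same in each of the 4 libraries. Among neighbours in the order, the ranges over libraries overlapped only for NANOG and ZSCAN10, where the lowest NANOG value (22.4 TPM) lay under the highest ZSCAN10 value (23.3 TPM). POU5F1 ranked from 116 to 126 among all genes of a library, and PRDM14 from 5452 to 7192. POU5F1 made up between 73.5% and 75.7% of the summed TPM of the 7 factors, which was 0.149% to 0.168% of the listed TPM.

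**Figure D1:**
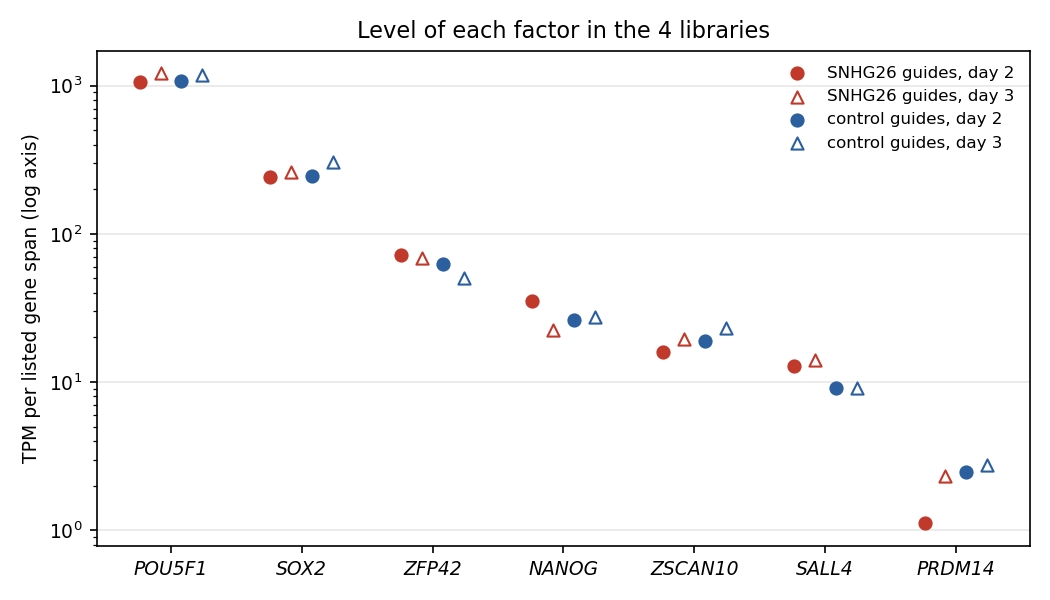
Listed TPM of the 7 factors in the 4 libraries, on a log axis. Red points are SNHG26-guide and blue points control-guide libraries, with circles for day 2 and open triangles for day 3. The gaps between POU5F1, SOX2 and ZFP42 are larger than the spread of any of them over the libraries.

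The order per span is not an order of reads. SOX2 is a gene without introns and spans 2512 bases, whereas SALL4 spans 20191. On its listed span, SALL4 had 35.6 and 43.8 reads in the SNHG26-guide libraries and 23.0 and 27.6 in the control libraries. On the same basis ZSCAN10 had 22.6, 31.0, 24.5 and 36.0 reads in the same order, so reads of the 2 genes overlapped although their TPM did not. SOX2 rested on 83, 101, 77 and 115 reads. POU5F1 was the best measured of the 7, with about 914, 1177, 844 and 1111 reads when placed on its RefSeq span of 6346 bases, which alone gives a counting error of 2.91% to 3.44%. The reads are PCR products without molecular identifiers, so counting errors and intervals cover counting only.

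With the SNHG26 guides, none of the 7 factors passed the test, and the arm means of POU5F1, the most abundant, had a ratio of 1.01. Limma adjusted p-values of the guide change over 8274 genes ran from 0.935 to 0.998, and the smallest unadjusted p was 0.139. Over all genes tested, 0% passed between the guide arms (0 genes, with 337 or 4.07% at an unadjusted p under 0.05). An exact permutation test of 2 libraries against 2 cannot give a p below 0.3333. The median log2 change of the 7 was 0.0093, beside 0.041 for all genes tested. For POU5F1 and NANOG the sign differed between day 2 and day 3, as it did for 44.3% of all genes tested. In bulk RNA, fewer cells of a type and less RNA per cell cannot be told apart.

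POU5F1 encodes OCT4, the POU-domain factor that the cells cannot do without. It was listed on chromosome 6 (31164337 to 31180731, minus strand) at 1050 and 1212 TPM with the SNHG26 guides on day 2 and day 3, and at 1068 and 1175 TPM with the control guides. The arms overlapped, and each day 3 library stood above each day 2 library. The means were 1131 ± 115 and 1121.7 ± 76.0 TPM, a log2 change of 0.0093 (SE 0.14, limma adjusted p = 0.998). Its sign depended on the scaling, with -0.065 after quantile normalization, -0.030 after median ratio scaling and -0.080 when the genes of the mitochondrial genome were left out of the scaling. Those genes held 23.2% and 18.5% of the listed TPM in the SNHG26-guide libraries and 25.7% and 25.9% in the control libraries.

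SOX2, the HMG-box partner of OCT4, lies on chromosome 3 (181711925 to 181714436, plus strand), inside the listed span of the non-coding gene SOX2-OT on the same strand. It stood at 240.9 and 262.6 TPM with the SNHG26 guides and at 246.2 and 307.5 TPM with the control guides. The arms overlapped, and the day 3 control library was the highest. The log2 change was -0.13 (SE 0.19, limma adjusted p = 0.976), and it became 0.031 without that library. Since SOX2 has a single span, its TPM values are whole reads with exact 95% Poisson intervals, which ran from 191.9 to 298.6 TPM in the lowest library (83 reads) and from 253.8 to 369.1 TPM in the highest (115 reads). SOX2-OT was listed at 0 in 3 libraries and at 0.434 TPM in the day 3 control library, the value that 1 read on 15479 bases would give.

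NANOG, a homeodomain factor whose level is known to vary between cells, lies on chromosome 12 (7787794 to 7799146, plus strand). It was listed at 35.5 and 22.4 TPM with the SNHG26 guides and at 26.4 and 27.6 TPM with the control guides. The SNHG26-guide libraries held both the highest and the lowest value, and the control libraries lay between them. On the log2 scale NANOG differed by 0.41 on day 2 and by -0.29 on day 3, and the mean of both was 0.062 (SE 0.33, limma adjusted p = 0.998). The mean became -0.26 without the day 2 SNHG26-guide library. The difference between the days in this change was -0.70 (SE 0.55, limma adjusted p = 0.961).

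The NANOG values also hold a trace of transcript structure. On the RefSeq span of 9745 bases, the control libraries came out as exactly 32 and 40 reads, with exact 95% Poisson intervals of 21.9 to 45.2 and 28.6 to 54.5 reads. The SNHG26-guide libraries came out as 47.4 and 33.4 reads on that span. The remainder in each is what 1 read on 7015 bases would leave, after which 46 and 32 whole reads remain. In GENCODE release 29 the transcript NANOG-204 has that span (7787794 to 7794808) and starts upstream of the RefSeq start. The arithmetic does not show which transcript was read, and 1 read in each of 2 libraries allows no comparison of the arms.

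SALL4 and ZFP42 were higher in both SNHG26-guide libraries than in both control libraries, a pattern that 16.1% of all genes tested showed, and 17.9% of the 6529 tested genes with a value in every library. SALL4, a zinc finger factor that supports POU5F1 expression and binds the NuRD chromatin complex, lies on chromosome 20 (51782331 to 51802521, minus strand). It was listed at 12.8 and 14.2 TPM with the SNHG26 guides and at 9.13 and 9.18 TPM with the control guides. The arms did not overlap, and the means of 13.5 ± 0.934 and 9.16 ± 0.0308 TPM differed by 1.47-fold. The log2 change was 0.51 (SE 0.28, limma adjusted p = 0.935). With 23.0 and 27.6 reads on the listed span, counting error in the control libraries was 20.9% and 19.0%, larger than the gap between them.

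ZFP42 encodes REX1, a zinc finger protein related to YY1 and long used as a marker of undifferentiated cells. On chromosome 4 (187995771 to 188005046, plus strand) it stood at 71.5 and 68.3 TPM with the SNHG26 guides and at 62.4 and 50.7 TPM with the control guides. The arms did not overlap, and the day 3 control library was the lowest. The means were 69.9 ± 2.31 and 56.5 ± 8.25 TPM, a log2 change of 0.31 (SE 0.23, limma adjusted p = 0.935). On the listed span, 91.0 and 96.9 reads lay behind the SNHG26-guide values and 72.0 and 70.0 behind the control values. The RefSeq span is longer, 9476 against 9276 bases, and gives 93.0, 99.0, 73.6 and 71.5 reads in the same order. SALL4 and ZFP42 stayed apart in this direction with quantile normalization, median ratio scaling and scaling without the mitochondrial genome. Leaving out 1 library cannot undo a separation without overlap, so it is no check here.

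PRDM14 was the member with lower values in both SNHG26-guide libraries, as had 13.2% of all genes tested and 13.7% of those with a value in every library. It encodes a PR-domain zinc finger protein that supports POU5F1 expression in human embryonic stem cells and represses differentiation genes. On chromosome 8 (70051651 to 70071693, minus strand) it was listed at 1.12 and 2.33 TPM with the SNHG26 guides and at 2.46 and 2.74 TPM with the control guides. The log2 change was -0.44 (SE 0.47, limma adjusted p = 0.949). Its values were whole reads on the RefSeq span of 19602 bases. There were 3 and 7 with the SNHG26 guides and 6 and 8 with the control guides. Reads of the arms thus overlapped although their TPM did not. The exact 95% Poisson intervals were 0.230 to 3.26 TPM for 3 reads and 1.18 to 5.40 TPM for 8 reads. These intervals are wide and overlap, which is not itself a test of a difference.

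**Figure D2:**
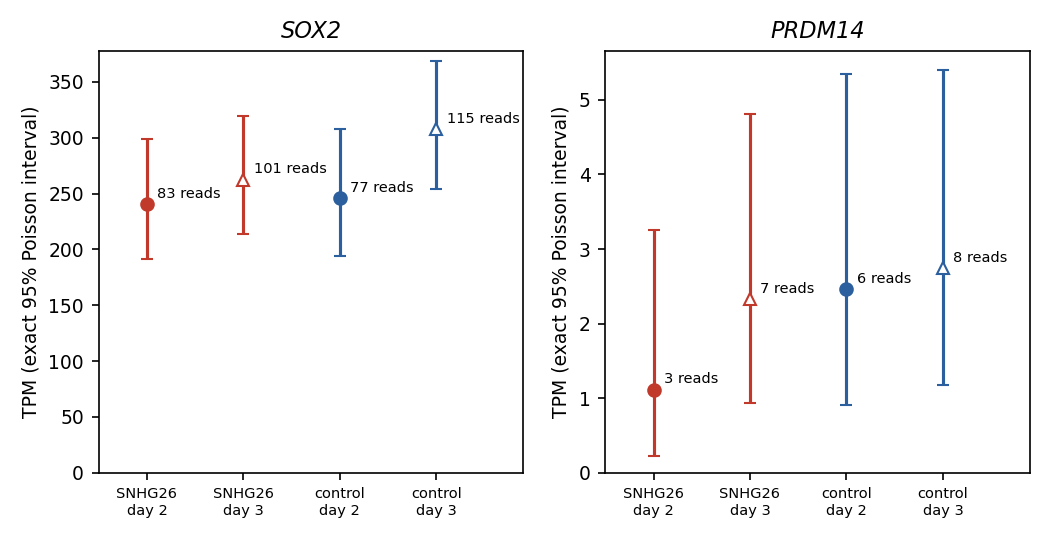
TPM of SOX2 and PRDM14, the 2 factors whose values were whole reads in all 4 libraries, with exact 95% Poisson intervals and read numbers. The intervals of the 4 libraries overlap in both genes, from 83 to 115 reads at SOX2 and from 3 to 8 reads at PRDM14 for the libraries with the lowest and highest TPM.

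ZSCAN10, a SCAN-domain zinc finger protein that cooperates with OCT4 and SOX2, was listed on chromosome 16 (3088890 to 3099295, minus strand). It stood at 15.8 and 19.5 TPM with the SNHG26 guides and at 18.9 and 23.3 TPM with the control guides. Within each day the control library was higher, but the arms overlapped. The log2 change was -0.24 on both days, with a mean of -0.24 (SE 0.29, limma adjusted p = 0.958).

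**Figure D3:**
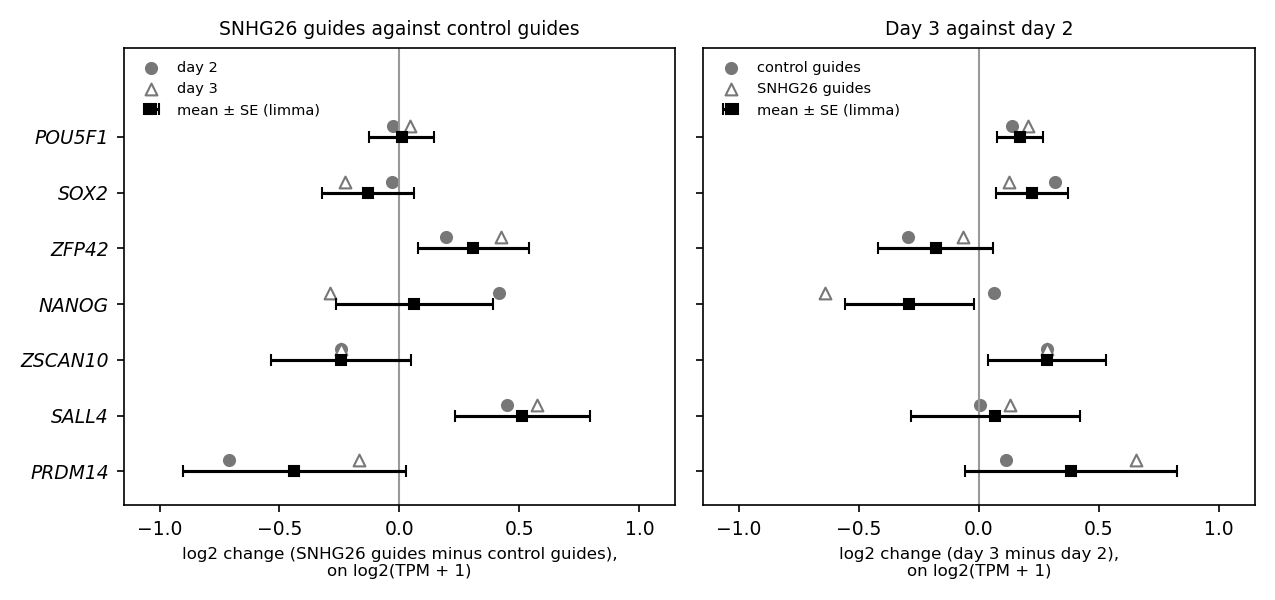
Log2 changes of the 7 factors on log2(TPM + 1), between guides (left, by day) and between days (right, by arm), with black squares for the mean ± SE of the limma fit. Between guides, SALL4 and ZFP42 lie right of 0 on both days and NANOG on opposite sides. Between days, 5 of the 7 lie right of 0 in both arms, SALL4 in the control arm by only 0.0062.

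Between day 2 and day 3 of doxycycline, 5 of the 7 factors were higher on day 3 in both arms (POU5F1, SOX2, SALL4, PRDM14 and ZSCAN10). The same held for 24.3% of all genes tested and 26.6% of those with a value in every library. For SALL4 in the control arm the values were 9.13 and 9.18 TPM, a gap smaller than their counting errors of 20.9% and 19.0%. PRDM14 went from 3 to 7 reads in the SNHG26 arm and from 6 to 8 in the control arm. For POU5F1, SOX2 and ZSCAN10, both day 3 libraries stood above both day 2 libraries, as they did for 17.1% of all genes tested and 18.5% of those with a value in every library. In 0 of the 7 were both day 3 libraries below, against 18.4% of all genes. None of the 7 passed the test, with limma adjusted p-values from 0.760 to 0.976, and 0.0363% of all genes (3 of 8274) did. The median log2 change of the 7 was 0.17, beside 0.0071 for all genes tested. The day 3 libraries were also the deeper ones in both arms, and the part of depth in this difference was not tested.

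POU5F1 had 1059 ± 13.0 TPM on day 2 and 1194 ± 25.6 TPM on day 3, a log2 change of 0.17 (SE 0.096, limma adjusted p = 0.760) that shrank to 0.038 after quantile normalization. SOX2 had 243.6 ± 3.78 and 285.0 ± 31.7 TPM, a log2 change of 0.22 (SE 0.15, limma adjusted p = 0.760). ZSCAN10 had 17.4 ± 2.17 and 21.4 ± 2.68 TPM, with a log2 change of 0.28 in the SNHG26 arm and 0.29 in the control arm. ZFP42 was the member lower on day 3 in both arms, by -0.067 and -0.29 on the log2 scale. NANOG differed between the arms, at -0.64 in the SNHG26 arm and 0.061 in the control arm. No difference between the days in the guide change passed for any of the 7, with limma adjusted p-values of at least 0.961 in a test that 0.0967% of all genes passed.

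Ratios within a library do not depend on its scaling. Of the 6529 tested genes with a value in every library, 16.6% had a ratio to POU5F1 higher in both SNHG26-guide libraries than in both control libraries, and 13.2% had a lower one. POU5F1 stood 3.82 to 4.61 times above SOX2 and 29.6 to 54.1 times above NANOG in listed TPM. The log2 ratio of SALL4 to POU5F1 was -6.35 and -6.42 with the SNHG26 guides and -6.87 and -7.001 with the control guides, and the arms did not overlap. That of ZFP42 was -3.88 and -4.15 with the SNHG26 guides and -4.10 and -4.54 with the control guides, which overlapped. The ratios of SOX2, PRDM14 and ZSCAN10 to POU5F1 were lower in both SNHG26-guide libraries than in both control libraries, for SOX2 by -0.0066 on day 2 and -0.27 on day 3.

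The factors varied less over the 4 libraries than most genes of like listed TPM. Genes of like TPM can rest on different read numbers, and the part of counting error in this difference was not tested. The SD of log2(TPM + 1) was 0.10 for POU5F1, beside a median of 0.17 over 152 genes within 2-fold of its level, of which 14.5% varied less. For the other 6 factors, between 18.8% and 31.1% of the genes of like level varied less. By the root mean square distance of values centred over the 4 libraries, among 1142 genes averaging 50 TPM or more, RPL11 was nearest to POU5F1 (0.021), TSTD1 to SOX2 (0.033), CLDN7 to ZFP42 (0.025), H1-4 to ZSCAN10 (0.024), ATP5F1E to SALL4 (0.035) and HNRNPL to NANOG (0.065). SOX2 and ZSCAN10 were each other's nearest member (0.081), and SALL4 and ZFP42 likewise (0.16). With 4 libraries, other genes can come closer than the nearest member. Of the 1142 genes, 17 (1.49%) lay nearer to SOX2 than ZSCAN10 did, and 12 (1.05%) nearer to ZSCAN10 than SOX2 did. For the other pair, 108 (9.46%) lay nearer to SALL4 than ZFP42 did, and 313 (27.4%) nearer to ZFP42 than SALL4 did.

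Reads of POU5F1 and NANOG can be confused with those of their processed copies, so 60 coding bases of each parent are shown beside the copy, with capitals on the bases that differ. POU5F1P3, a pseudogene on chromosome 12, matches 1056 of 1076 aligned coding bases of POU5F1 (98.1%). NANOGP8, a copy on chromosome 15, matches 910 of 915 coding bases of NANOG (99.5%). The windows come from GENCODE release 29 on GRCh38, at chr6:31170382-31170441 (minus strand, exon 1 of POU5F1), chr12:8134613-8134672 (minus strand), chr12:7789615-7789674 (plus strand, exon 1 of NANOG) and chr15:35085051-35085110 (minus strand). They were chosen as the stretch with the most differences within 1 exon.
POU5F1: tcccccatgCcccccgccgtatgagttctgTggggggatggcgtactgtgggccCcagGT
POU5F1P3: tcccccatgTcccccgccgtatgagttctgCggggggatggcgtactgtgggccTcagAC
NANOG: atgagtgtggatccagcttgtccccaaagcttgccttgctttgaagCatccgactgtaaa
NANOGP8: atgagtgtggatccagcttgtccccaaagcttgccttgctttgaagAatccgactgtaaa

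POU5F1P3 was listed on 3 and 0 reads in the SNHG26-guide libraries and on 1 and 2 in the control libraries. NANOGP8 had 1, 1, 1 and 0 reads in the same order. POU5F1B, a copy on chromosome 8, was listed at 0 in 3 libraries and at 6.05 TPM in the day 3 SNHG26-guide library, which is 90.6 reads on its listed span of 97884 bases but 1 read on a span of 1080 bases. The listed span gives no whole number of reads, whereas the span of 1080 bases does. The span used is not given in the sources used here. Reads assigned wrongly between a parent and a copy cannot be told apart. TCF19, on the strand opposite to POU5F1 and overlapping it by 2823 bases, had from 0 to 3.44 TPM. Whether counting used strand is not given in the sources used here.

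Genes that work with the core factors were compared from lists in which 0 genes passed between the guide arms. Of 40 other transcription factors of the network, 26 were tested, of which 6 had both SNHG26-guide libraries above and 3 below both control libraries. Over all genes tested the shares were 16.1% above and 13.2% below. Their median log2 change was -0.067. Among the highest were OTX2, a factor of the primed state (43.5 and 39.5 against 41.9 and 45.5 TPM), and FOXH1, which carries Nodal signals (20.9 and 37.5 against 23.1 and 22.0 TPM). The arms overlapped for both.

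Of 27 genes known as targets of OCT4, SOX2 and NANOG, 20 were tested, with a median of -0.078. Both SNHG26-guide libraries lay above both control libraries in 2 of them and below in 6, beside 16.1% above and 13.2% below among all genes tested. DPPA4, a chromatin protein of early embryonic cells, stood at 210.2 and 182.5 TPM with the SNHG26 guides and at 314.7 and 266.1 TPM with the control guides. These arms did not overlap, and the log2 change was -0.56 (SE 0.19, limma adjusted p = 0.935). The primate non-coding RNA ESRG (91.0 and 193.6 against 104.5 and 245.5 TPM) and the RNA-binding protein gene L1TD1 (83.5 and 87.0 against 97.1 and 89.2 TPM) are also among the highest. LEFTY1, a secreted Nodal inhibitor, varied from 66.2 to 7.03 TPM, with its lowest value in the day 3 control library.

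Of 33 chromatin partners, 25 were tested, and their median log2 change was 0.032, with 3 above and 2 below without overlap (16.1% and 13.2% of all genes tested). TRIM28, a corepressor that KRAB itself recruits, had 99.998 and 109.8 TPM with the SNHG26 guides and 93.6 and 90.7 TPM with the control guides, which did not overlap (log2 change 0.18, SE 0.19, limma adjusted p = 0.945). RBBP7, a histone-binding subunit of NuRD, had 74.1 and 62.3 against 55.1 and 73.5 TPM. Of 32 family relatives of the members, 14 were tested, with 4 above and 1 below without overlap (16.1% and 13.2% of all genes tested). The median log2 change of these relatives was -0.019. Among them SOX4 (557.0 and 631.8 against 590.6 and 656.6 TPM) was higher per span than SOX2 in every library, and SOX3 (17.5 and 6.27 against 19.3 and 16.1 TPM) followed far below. The SOX3 values are 5, 2, 5 and 5 reads on the listed span.

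**Figure D4:**
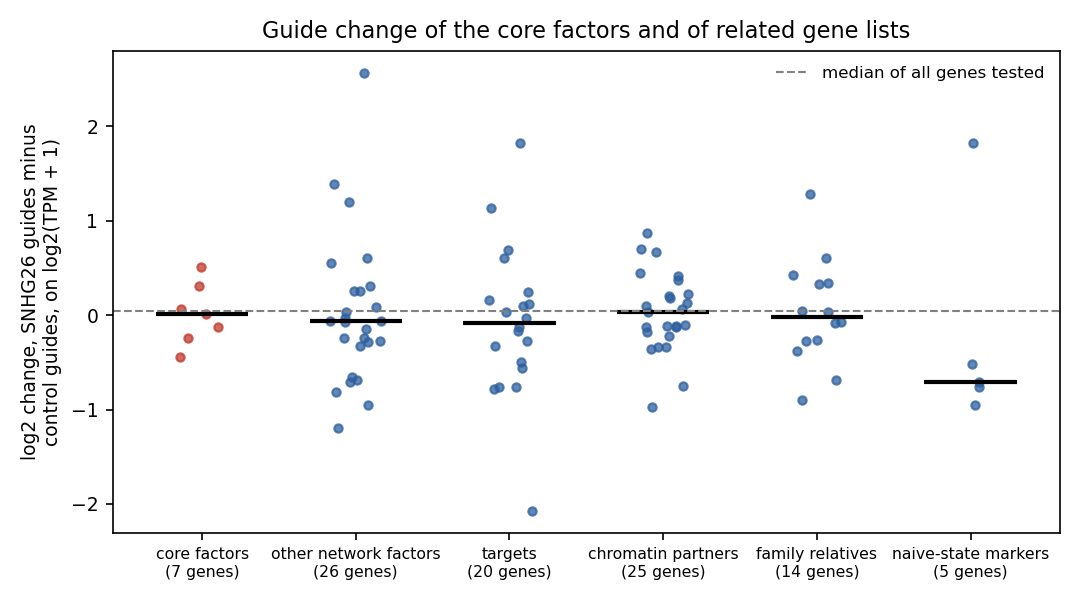
Log2 change with the SNHG26 guides for each tested gene of the core factors and of 5 related lists, on log2(TPM + 1). Bars are list medians and the dashed line is the median of all genes tested (0.041). The median of the 7 core factors is 0.0093, and 0 genes of these lists passed the test.

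Of 27 markers of early lineages and fibroblasts, 17 are not analysed here, 3 (EOMES, FOXA2 and ISL1) were listed at 0 in all 4 libraries, and 3 reached the filter. A 0 in this table does not show that a gene is off, since EP300, a coactivator that most cells use, was also listed at 0 in both day 3 libraries. Their summed level was 32.4 and 29.9 TPM with the SNHG26 guides and 33.9 and 32.3 TPM with the control guides. NES (24.5 and 21.2 against 23.2 and 17.1 TPM) and the collagen gene COL1A2 (3.79 and 5.01 against 7.47 and 7.72 TPM) were the markers averaging 5 TPM or more. The mean of NES, 21.5 TPM per span, was above those of ZSCAN10, SALL4 and PRDM14. Of 10 markers of the naive state, 6 were in the table. They summed to 12.1 and 13.9 TPM with the SNHG26 guides and 14.9 and 13.1 TPM with the control guides. Of these, 5 were tested, with a median log2 change of -0.71. Without overlap, 1 lay above and 2 below (16.1% and 13.2% of all genes tested). DPPA5 was the highest of them per span, at 6.01 and 10.8 against 0 and 5.53 TPM. These values are only 1, 2, 0 and 1 reads on the listed span, and DPPA3, of the same list, had 1, 0, 4 and 0. The defining factors of the labelled cell type, human embryonic stem cells, were present in every library.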

How the data were processed

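Poly(A) RNA was reverse transcribed with oligo-dT and strand switching, amplified for 14 PCR cycles and sequenced on a nanopore instrument, per the labels' protocols. The authors deposited gene-level TPM, with 1 column per library. The submitters' processing notes name minimap2 2.24-r1122 and GRCh38. The counting tool, annotation and filters are not given in the sources used here.

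The TPM worth of 1 read was taken as the most frequent product of TPM and listed span, and with it the 13 mitochondrial mRNAs came out as whole reads within 0.001 read in each library. One read on 10 kb was worth from 0.653 to 0.803 TPM. Reads of the members were computed on the listed span and on the RefSeq span (GRCh38.p14), since the span used for each gene is not given.

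Genes averaging 1 TPM or more (8274, with all 7 members) were tested on log2(TPM + 1), which understates changes of low genes, with limma 3.58.1 (trend) in R 4.3.3 and Benjamini-Hochberg adjustment at 0.05, without a day term. The same fit compared the days. The difference between days in the guide change set the crossed pairs of libraries against each other. Day deviations of the arms, which share the labelled day, had a correlation of 0.046 over 8274 genes. The fit was tested on simulated data.

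The members, lists and tests were chosen with earlier results of these data known. Beside the members, the text names the highest genes of 4 lists (3 network factors, 4 targets, 2 partners, 2 relatives), copies and markers averaging 5 TPM or more, and the gene nearest in pattern to each member at that level. A gene that this rule names is not reported here. NANOGP8, POU5F1B, SOX2-OT and TCF19, below that mean, are given because they share sequence or position with members, and EP300 for its listed 0. Alternatives were a pseudocount of 0.1 or 5, the filter left out or raised to 5 TPM, quantile, median ratio and non-mitochondrial scaling, no trend, the replicate block (day or arm), and leaving out each library. The count of members higher in both libraries was added after seeing the data.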

Additional observations from a re-analysis of the deposited data

How the results depend on the processing

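No member passed in any setting, with limma adjusted p-values of at least 0.466. The guide change of POU5F1 reversed to -0.065 with quantile normalization, -0.030 with median ratio scaling and -0.080 with scaling without mitochondrial genes, and that of NANOG to -0.024 with the last. The difference between the days in the guide change of POU5F1 reversed to -0.033 and -0.020 with the latter 2 scalings. Leaving out 1 library in turn, which leaves an arm or day with a lone library assumed to vary like the rest, gave guide changes from -0.094 to 0.11 for POU5F1, -0.29 to 0.031 for SOX2 and -0.26 to 0.38 for NANOG, and day changes from -0.22 to 0.36 for SALL4 and -0.39 to 0.031 for ZFP42. All other guide and day changes of the members kept their sign there, with guide changes from 0.45 to 0.58 for SALL4, 0.16 to 0.46 for ZFP42, -0.77 to -0.11 for PRDM14 and -0.39 to -0.10 for ZSCAN10. Where groups do not overlap, leaving out 1 library cannot change the sign, so a kept sign is no check. This holds for the guide changes of SALL4, ZFP42 and PRDM14 and the day changes of POU5F1, SOX2 and ZSCAN10.

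Members lower in both SNHG26-guide libraries numbered 1 as reported, 3 with quantile normalization or without mitochondrial genes, 0 with the filter at 5 TPM, which removes PRDM14, and 1 to 4 without 1 library, when an arm has a lone value. Genes past the threshold between the days went from 3 to 0 with quantile normalization, no trend, no filter, a pseudocount of 0.1 or 5, the replicate block and without any 1 library (0 to 0). The cause was not tested. In the test of the day difference in the guide change, 8 genes passed as reported, 14 with a pseudocount of 0.1, 13 with the filter at 5 TPM, 7 with each other scaling, and 0 with a pseudocount of 5, no filter or no trend. Between the guides the count was 0 in every setting. The replicate block left it at 0, kept the POU5F1 change at 0.0093 and changed no member's call. Depth limits PRDM14 most, at 3 to 8 reads.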

Other observations

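UTF1 and THAP11 were chosen here after their values were seen, as genes of the target and network lists with the smallest unadjusted p. UTF1, a chromatin-associated factor of undifferentiated cells and a textbook target of OCT4 and SOX2, was listed at 10.9 and 9.73 TPM with the SNHG26 guides on day 2 and day 3 and at 35.9 and 60.1 TPM with the control guides. These values are 2, 2, 6 and 12 whole reads on the listed span. The arms did not overlap, and the log2 change was -2.07 (SE 0.36), with a limma adjusted p of 0.431 that does not pass. THAP11, also called Ronin, a zinc finger factor that sustains growth of embryonic stem cells, stood at 19.4 and 27.9 TPM with the SNHG26 guides and at 8.56 and 10.7 TPM with the control guides. It rested on 5, 8, 2 and 3 reads, with a log2 change of 1.20 (SE 0.33) and a limma adjusted p of 0.935.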
